A study of Mus musculus with 4 samples.

Results

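The genes described here are 10 components of the Notch pathway: the receptor genes Notch1, Notch2 and Notch3, the ligand genes Dll1, Dll3 and Jag1, and the target genes Hes1, Hes5, Hey1 and Nrarp. They were chosen by name, and every probe set annotated with 1 of these symbols alone was read, which gave 17 probe sets out of 45037 for transcripts on the array, or 10 of the 12040 genes with a probe set bright enough to be tested. Their signals were compared between primary neuron cultures (2 arrays) and primary astrocyte cultures (2 arrays), both from the cerebral cortex of C57BL6 mice. The neurons were taken from fetuses of embryonic day 16 and kept for 7 days, after the first hours in a medium holding 1% serum and 19.4 mM glucose with insulin, transferrin, progesterone, putrescine and selenite. The astrocytes were taken from newborns and kept for 20 days, by the series' design text, with 10% serum and 33 mM glucose. The protocol text names a single shorter period for every assay. Age of the animals, medium and days in culture therefore differ along with the cell type and cannot be told apart from it. The titles call the arrays of a group biological replicates. No label says that they came from separate animals or dishes, so the p-values rest on the spread between these arrays, pooled in part over probe sets. Each group is a whole culture and not a sorted cell type, so that fewer cells of a type and less RNA per cell cannot be told apart.

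Notch receptors sit in the cell membrane and are activated by ligands of the Delta and Jagged families on a neighbouring cell. The receptor is then cut, its inner part enters the nucleus, binds the DNA-binding protein RBPJ and switches on genes for repressors of the Hes and Hey families. In the developing cortex Notch activity keeps progenitor cells undifferentiated and favours glial fates, and the young neurons beside them carry Delta ligands.

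The 10 genes were divided between the cultures. Of them 4 were higher in neurons (Dll1, Dll3, Hes5, Nrarp), 5 were higher in astrocytes (Notch1, Notch2, Jag1, Hes1, Hey1) and 1, Notch3, was not called. Differences between these cultures were common, and over all 12040 genes 62.2% were called in either direction at an adjusted p of 0.05, 31.0% higher in neurons and 31.1% higher in astrocytes. A call together with a change of at least 2-fold was found for 9 of the 10 Notch genes and for 36.8% of all genes. The median size of the log2 fold change, its sign left aside, was 1.74 over the Notch genes and 0.69 over all genes. The Notch genes were chosen with earlier results of these data known, so these contrasts are a description only. The main probe sets of Dll3 and Hes5 also entered the test through the neuron arrays alone. By probe set, 6 of the 16 that were bright enough to be tested were higher in neurons and 9 were higher in astrocytes, where 29.4% and 27.7% of all tested probe sets were, and 57.2% in either direction. The groups did not overlap in all 10 genes as read by their main probe set, which was also the case for 81.9% of all genes. They did not overlap in any of the 16 tested Notch probe sets, against 78.3% of all tested probe sets.

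Among promoter sequences, those of the targets higher in neurons and of the ligand higher in astrocytes are shown, since Hes5 and Nrarp moved against Jag1 between the same arrays. They are RefSeq windows of build GRCm38.p6, from 250 bases before the start site to 50 bases from it on, on the strand of the gene, and a window was held for 8 of the 10 genes. The genes with none were Hes1 and Hey1. Capitals mark matches, on either strand, to the RBPJ motif TGGGAA and its longer form GTGGGAA, which contains it, and to the sites CACGTG and CACGCG that Hes and Hey repressors are known to bind.
Hes5, plus strand, chr4:154960673-154960972: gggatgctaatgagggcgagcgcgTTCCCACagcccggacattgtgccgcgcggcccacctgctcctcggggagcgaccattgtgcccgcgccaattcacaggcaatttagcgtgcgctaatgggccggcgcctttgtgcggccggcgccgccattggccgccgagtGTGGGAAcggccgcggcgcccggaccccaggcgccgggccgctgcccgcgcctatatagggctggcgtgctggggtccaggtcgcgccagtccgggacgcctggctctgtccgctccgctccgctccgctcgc
Nrarp, plus strand, chr2:25180508-25180807: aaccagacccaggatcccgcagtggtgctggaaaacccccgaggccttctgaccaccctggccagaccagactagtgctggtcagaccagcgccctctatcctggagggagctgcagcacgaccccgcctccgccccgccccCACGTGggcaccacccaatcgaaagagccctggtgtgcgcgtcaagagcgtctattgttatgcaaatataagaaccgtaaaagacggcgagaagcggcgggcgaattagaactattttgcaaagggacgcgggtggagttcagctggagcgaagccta
Jag1, minus strand, chr2:137116471-137116770: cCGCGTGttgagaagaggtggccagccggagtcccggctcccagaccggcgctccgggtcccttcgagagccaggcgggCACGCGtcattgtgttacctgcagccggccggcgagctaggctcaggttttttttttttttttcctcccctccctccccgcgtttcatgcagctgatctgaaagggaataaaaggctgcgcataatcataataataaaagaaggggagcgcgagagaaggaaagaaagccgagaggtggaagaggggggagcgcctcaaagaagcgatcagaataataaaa

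The longer RBPJ form occurred in the Hes5 window alone among the 8 genes, in 2 copies that lie on opposite strands and begin at positions -226 and -83 from the start site. In the RefSeq table, 7.25% of 27025 genes had a window of the same length with this form and 28.3% had one with the shorter form, which among the Notch genes was also found in Hes5 alone. CACGTG, which reads the same on both strands, was found in Nrarp alone of the 8 genes, at -108, against 8.09% of all genes. CACGCG was found for 3 of the 8 genes, Dll1, Jag1 and Notch2, against 10.5% of all genes. CpG pairs (C followed by G) numbered 41 in the Notch2 window, 22 in that of Jag1 and 15 in the matching Dll1 window. The median over all windows was 7, and the shares were not matched for base composition. Dll1 has 2 of the 9 windows, and a gene was counted once where any of its windows held a match. The N-box CACNAG, not shown in capitals, was found in 5 of the 8 genes and in 46.1% of all genes. The GC content was 72.7% in the Hes5 window, 60.0% in the Nrarp window and 55.7% in the Jag1 window, with a median of 52.7% over all windows.

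The receptor genes did not share 1 pattern. Notch2 encodes a receptor that is common in glia and their precursors. Its brighter probe set had signals of 176 and 138 in the neuron cultures, and the astrocyte cultures gave 828 and 944. Both astrocyte arrays lay far above both neuron arrays, the neurons averaging 157 ± 26.9 and the astrocytes 886 ± 82.0 (SD over the 2 arrays of a group, here and below). The log2 fold change, neurons minus astrocytes as everywhere below, was -2.41 with a standard error (SE) of 0.16, or 5.32-fold higher in astrocytes (limma adjusted p = 4.3e-06). A dimmer Notch2 probe set read 3 and 15 in neurons and 35 and 36 in astrocytes. Here the neuron arrays were at or under background, which is the highest signal that any Bacillus subtilis control probe set reached on the array (15 to 23), and the difference was at least 1.61-fold (adjusted p = 0.0117). The average of both probe sets had a log2 fold change of -1.81.

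Notch1, the receptor best known for holding cortical progenitors in their state, was also higher in astrocytes. Its brighter probe set gave 263 and 301 in neurons and 672 and 883 in astrocytes. The groups were clearly apart although the astrocyte arrays differed from each other, with a 2.66-fold excess in astrocytes (log2 fold change -1.41, SE 0.16, adjusted p = 0.000115). The dimmer Notch1 probe set gave 78 and 71 in neurons and 105 and 123 in astrocytes, a 1.45-fold excess in astrocytes (adjusted p = 0.0378).

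Notch3 encodes the receptor best known from the smooth muscle cells and pericytes of blood vessels. Its main probe set, whose name marks probes shared between transcripts, read 91 and 79 in neurons and 116 and 105 in astrocytes. The lowest astrocyte array lay above the highest neuron array, but the difference did not pass the threshold (log2 fold change -0.34, 95% interval -0.76 to 0.09, adjusted p = 0.154). A dimmer Notch3 probe set read 10 and 18 in neurons and 19 and 10 in astrocytes, and it was the 1 Notch probe set too dim to be tested. Within an array, the log2 signal of Notch2 less that of Notch3 was 0.86 and 0.72 in neurons and 2.71 and 3.03 in astrocytes, a shift of -2.08, given as a description. Such a difference between probe sets has no meaning as a level, and only its shift between cultures can be read.

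**Figure D1:**
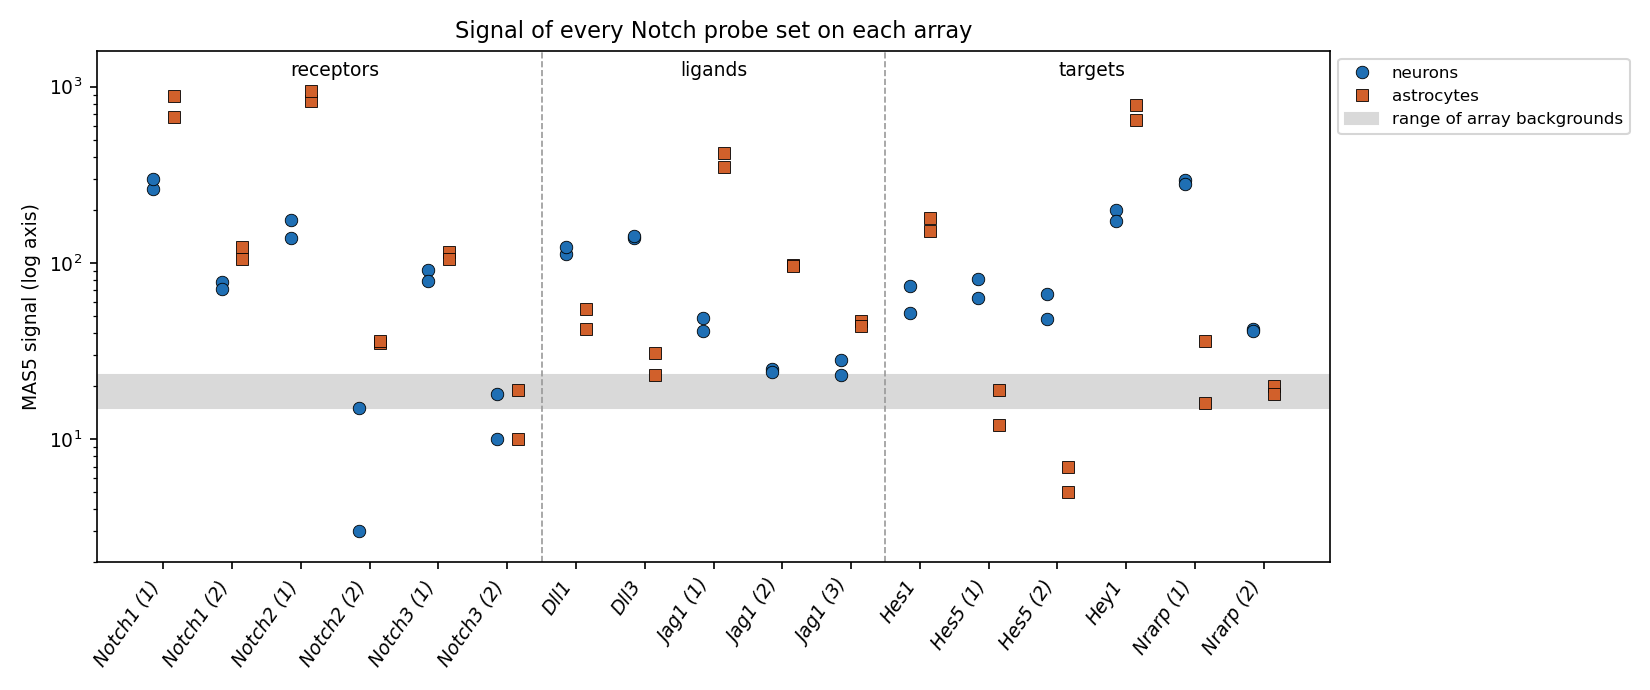
MAS5 signal (log axis) of the 17 Notch probe sets on the 2 neuron arrays (circles, left of each pair) and the 2 astrocyte arrays (squares, right of each pair); where a gene has several probe sets they are numbered from the brightest, and the grey band spans the array backgrounds of 15 to 23. Dll1, Dll3, Hes5 and Nrarp lie higher in neurons, Notch1, Notch2, Jag1, Hes1 and Hey1 lie higher in astrocytes, and the Notch3 points lie close together.

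Of the 3 ligand genes, 2 were higher in neurons and 1 was higher in astrocytes. Dll1 encodes the Delta ligand that newborn neurons and committed progenitors present to their neighbours. It read 112 and 123 in neurons and 55 and 42 in astrocytes. Both neuron arrays lay above both astrocyte arrays, which were themselves above background, and the excess in neurons was 2.14-fold (log2 fold change 1.10, SE 0.20, adjusted p = 0.00184).

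Dll3 encodes a divergent Delta protein that stays largely inside the cell and does not activate receptors on neighbours. Its signals were 138 and 142 in neurons and 23 and 31 in astrocytes. The neuron arrays agreed closely and the astrocyte arrays lay just above their backgrounds of 17 and 15. Dll3 was 3.88-fold higher in neurons (log2 fold change 1.96, SE 0.21, adjusted p = 6.94e-05). With an offset 4 times as large before the logarithm, its log2 fold change was 1.30.

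Jag1, the Jagged ligand of astrocytes and vessel walls among other cells, showed the reverse. Its main probe set read 49 and 41 in neurons and 420 and 352 in astrocytes. Both neuron arrays were above background and the astrocyte arrays far above them. By the main probe sets Jag1 had the largest excess in astrocytes of the 10 genes, 6.92-fold (log2 fold change -2.79, SE 0.18, adjusted p = 3.74e-06). The second probe set read 25 and 24 in neurons and 98 and 96 in astrocytes (adjusted p = 0.000252). The third read 28 and 23 in neurons and 47 and 44 in astrocytes (adjusted p = 0.0496). All 3 were called higher in astrocytes with log2 fold changes of -2.79, -1.57 and -0.61. Averaging them gave -1.66, a smaller change than those of Hey1 (-1.87) and Notch2 (-1.81) by the same average. An offset 4 times as large gave -2.20 for the main probe set. Within an array, the log2 signal of Dll3 less that of Jag1 was 1.29 and 1.53 in neurons and -3.61 and -3.07 in astrocytes, a shift of 4.75.

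The target genes were divided as well, with 2 higher in each culture. Hes5 encodes a bHLH repressor that is among the most direct readouts of Notch activity in neural progenitors. Its promoter window is the one above with 2 separate copies of the longer RBPJ form. By its main probe set Hes5 read 63 and 81 in neurons and 12 and 19 in astrocytes. The neuron arrays were above background and of the astrocyte arrays 1 of 2 was. Hes5 was 3.02-fold higher in neurons (log2 fold change 1.60, SE 0.25, adjusted p = 0.000722), and 0.90 on the log2 scale with an offset 4 times as large. A second Hes5 probe set, whose name marks possible matches to other transcripts, read 48 and 67 in neurons and 7 and 5 in astrocytes. Neither astrocyte array exceeded background there, and the excess in neurons was at least 3.59-fold (adjusted p = 0.000339).

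Nrarp encodes an ankyrin repeat protein that is induced by Notch and dampens it in turn. The main probe set read 296 and 282 in neurons and 16 and 36 in astrocytes. The neuron arrays agreed closely, while the astrocyte arrays differed and 1 of them was not above its background of 17. By the main probe sets Nrarp had the largest excess in neurons among the 10 genes, 8.11-fold (log2 fold change 3.02, SE 0.26, adjusted p = 1.97e-05). The dimmer Nrarp probe set read 42 and 41 in neurons and 20 and 18 in astrocytes, a 1.72-fold excess in neurons (adjusted p = 0.0205). The average of both probe sets had a log2 fold change of 1.90, which is below the 1.96 of Dll3. An offset 4 times as large gave 2.17 for the main one.

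Hes1, which encodes the close relative of Hes5 that is also expressed outside the nervous system, went the other way. It read 74 and 52 in neurons and 180 and 152 in astrocytes. The groups were apart, and the excess in astrocytes was 2.38-fold (log2 fold change -1.25, SE 0.21, adjusted p = 0.00104). Without astrocytes replicate 1 this call was lost, with a log2 fold change of -1.14 and an adjusted p of 0.055. Within an array, the log2 signal of Hes5 less that of Hes1 was -0.20 and 0.54 in neurons and -2.97 and -2.38 in astrocytes, a shift of 2.85.

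Hey1, a bHLH repressor of the Hey family known from blood vessels and neural precursors, read 199 and 174 in neurons and 648 and 784 in astrocytes. All 4 arrays were well above background, the neurons averaging 186 ± 17.7 and the astrocytes 716 ± 96.2. The excess in astrocytes was 3.65-fold (log2 fold change -1.87, SE 0.15, adjusted p = 1.48e-05).

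**Figure D2:**
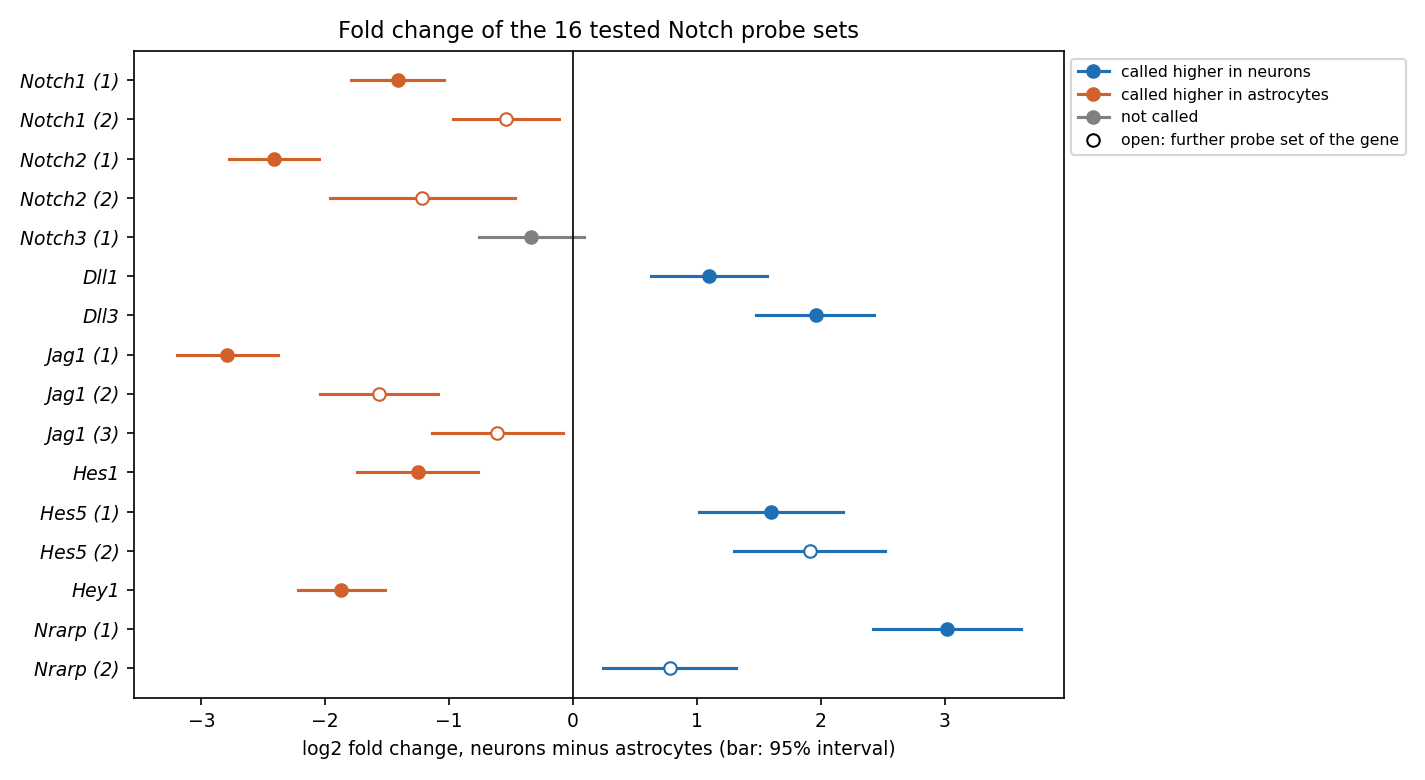
Log2 fold change (neurons minus astrocytes) of the 16 tested Notch probe sets with 95% intervals, filled where the probe set reads the gene and open for its further probe sets. Values run from -2.79 for the main probe set of Jag1 to 3.02 for that of Nrarp, the probe sets of a gene lie on the same side of 0, and the interval of Notch3, -0.76 to 0.09, includes 0.

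Probe sets of 1 gene pointed the same way in each gene with several tested, but their sizes differed, and dimmer probe sets showed smaller changes in Notch1, Notch2, Jag1 and Nrarp but not in Hes5. The filter also bears on some members. Of the 16 tested probe sets, 7 reached their array's median on the arrays of 1 group only, among them the main probe sets of Dll3 and Hes5, so that these entered the test through the group in which they were high. With the filter set at the 75th percentile of each array, Nrarp alone of the 4 genes higher in neurons was still tested. All 5 genes higher in astrocytes were still tested and called. At this filter Nrarp entered through the neuron arrays alone, and Jag1 and Hes1 entered through the astrocyte arrays alone.

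The genes most like the Notch genes in profile over the 4 arrays were found by Euclidean distance, on the log2 scale with each gene's mean removed, to the median profile of the 4 Notch genes higher in neurons or of the 5 higher in astrocytes. Prelid3a lay at 0.027, Clcn6 at 0.036 and Opn3 at 0.056 from the first, where the members themselves lay between 0.186 (Dll3) and 1.279 (Nrarp). Trmt6 lay at 0.045, Actn4 at 0.059 and Wwc1 at 0.060 from the second, which coincided with the profile of Hey1. Trmt6, for example, read 187 and 157 in neurons and 592 and 734 in astrocytes.

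The wider pathway was read through 87 further genes in 10 lists by role. Of these 80 had a probe set of their own, 17 were too dim to be tested and 7 were not analysed here. Of the 63 tested, 24 were called in favour of neurons and 23 in favour of astrocytes, with 16 not called, where the shares over all genes were 31.0% and 31.1%. The median log2 fold change was -0.09 over these genes and 0.02 over all genes, and its median size was 0.97 against 0.69 over all genes. A call and at least a 2-fold change were found for 30 of the 63 and for 36.8% of all genes. Of the 63 genes, 9 reached their array's median on the arrays of 1 group only, so that they entered the test through the group in which they were high. They are Cntn6, Egfl7, Neurl1a, Neurl1b, Lfng, Tle2, Dtx3l, Neurod1 and Insm1. In 4 of the 63 (Mib1, Crebbp, Dtx4 and Aak1) a further tested probe set was called in the direction opposite to the one that read the gene.

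Of the 3 remaining receptors and canonical ligands, 1 was tested, and it was not called by its main probe set. Jag2, the relative of Jag1, read 47 and 54 in neurons and 47 and 26 in astrocytes (log2 fold change 0.39, SE 0.27, adjusted p = 0.241), while its average over 2 probe sets had a log2 fold change of 1.17 (adjusted p = 0.000531). The receptor gene Notch4 and the ligand gene Dll4, both known from endothelium, were too dim to be tested. They are named after their values were seen: Notch4 read 41 and 11 in neurons and 16 and 12 in astrocytes, and Dll4 read 3 and 21 in neurons and 32 and 16 in astrocytes.

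Genes for proteins described as non-canonical Notch ligands were higher in neurons in all 7 tested of 9, against 31.0% of all genes. Their median log2 fold change was 1.15, and Cntn6 and Egfl7 among them entered the test through the neuron arrays alone. Cntn1, a contactin of axons, read 3294 and 3303 in neurons and 146 and 145 in astrocytes, 21.0-fold higher in neurons (adjusted p = 1.1e-07), and had a log2 fold change of 2.64 by the average of its probe sets, against 4.39. Dner, a neuronal transmembrane protein with EGF repeats, was the brightest of the list. It read 5319 and 5186 in neurons and 3489 and 3255 in astrocytes, 1.56-fold higher in neurons (adjusted p = 0.000642). The name of this probe set marks possible matches to other transcripts, and without such probe sets the log2 fold change was 0.44, against 0.64.

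Genes for the uptake of ligands into the signal-sending cell, which activates the receptor opposite, were higher in neurons in 3 of 6. Higher in astrocytes were 0 of 6, where the shares over all genes were 31.0% for neurons and 31.1% for astrocytes. Neurl1a and Neurl1b entered the test through the neuron arrays alone. Neurl1b, a ubiquitin ligase of the Neuralized family that acts on Delta and Jagged ligands, read 327 and 241 in neurons and 14 and 28 in astrocytes, where 1 of the 2 arrays was above background. It was 8.95-fold higher in neurons (adjusted p = 1.44e-05), with a log2 fold change of 2.23 for an offset 4 times as large against 3.16. Mib1, the ligase with the main part in Delta uptake, read 822 and 728 in neurons and 730 and 588 in astrocytes and was not called (log2 fold change 0.24, adjusted p = 0.199). Its probe sets disagreed, and 2 of its 3 were called higher in astrocytes.

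Of the genes for sugar transfer to receptors, 4 of 5 tested were higher in astrocytes and 1 was higher in neurons. The shares over all genes were 31.1% and 31.0%. The Fringe enzymes, which change how a receptor responds to Delta and to Jagged ligands, were split. Rfng was 1.98-fold higher in neurons (492 ± 43.1 against 242 ± 19.8 in astrocytes, adjusted p = 0.00047). Lfng read 6 and 22 in neurons, at or under background, and 43 and 62 in astrocytes, at least 2.39-fold higher there (adjusted p = 0.00884), a call lost without any 1 of neurons replicate 1, astrocytes replicate 1 or astrocytes replicate 2 (adjusted p 0.0927, 0.0882 and 0.158) and without the filter (0.0596). Its log2 fold change of -1.35 was -0.68 with an offset 4 times as large. It was also -0.68 by the average of its 2 probe sets, of which only 1 was bright enough to be tested. Poglut1, which adds glucose to the EGF repeats of the receptors, was 2.23-fold higher in astrocytes (342 ± 2.12 in neurons and 778 ± 43.8 in astrocytes, adjusted p = 7.96e-05).

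Of 8 genes for receptor cleavage, 0 were called higher in neurons, 3 higher in astrocytes and 5 in neither direction. Over all genes 31.0% were higher in neurons and 31.1% in astrocytes, so that 3 of 8 lay near that share. Psenen, a subunit of the gamma-secretase complex that makes the final cut, read 827 and 877 in neurons and 2203 and 2552 in astrocytes, 2.76-fold higher in astrocytes (adjusted p = 1.48e-05). Of the nuclear complex and its coactivators, 4 of 7 tested were higher in astrocytes and 1 was higher in neurons. Rbpj, the DNA-binding partner of all Notch receptors and named here after its values were seen, read 205 and 196 in neurons and 663 and 708 in astrocytes, 3.28-fold higher in astrocytes (adjusted p = 1.1e-05). The coactivator gene Kat2b was 5.87-fold higher in astrocytes (206 ± 20.5 in neurons and 1271 ± 41.0 in astrocytes, adjusted p = 1.2e-06), with a log2 fold change of -1.60 by the average of its probe sets against -2.55. Its paralog Kat2a was 1.75-fold higher in neurons (adjusted p = 0.00227, and 0.054 without astrocytes replicate 1). Maml2, a coactivator of the Mastermind family, was at or under background on all arrays.

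Corepressors were divided, with 5 of 13 higher in each culture, near the shares of 31.0% and 31.1% over all genes. Tle4, of the Groucho family that Hes proteins recruit, read 790 and 720 in neurons and 123 and 112 in astrocytes, 5.90-fold higher in neurons (adjusted p = 1.73e-06), with a log2 fold change of 1.71 by the average of its probe sets against 2.56. Hdac2, a histone deacetylase, was 2.76-fold higher in neurons (2253 ± 325 against 803 ± 14.1 in astrocytes, adjusted p = 2.27e-05). Kdm5a, a histone demethylase that works with RBPJ, was 2.56-fold higher in astrocytes (adjusted p = 0.000182), with a log2 fold change of -0.66 by the average of its probe sets against -1.36.

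Genes of receptor turnover and inhibition were also divided, with 5 of 12 higher in neurons and 6 higher in astrocytes by the main probe sets. These counts include Dtx4 (neurons) and Aak1 (astrocytes), whose probe sets disagreed, and the shares over all genes were 31.0% and 31.1%. Fbxw7, the ubiquitin ligase subunit that marks the active inner part of Notch for destruction, read 1674 and 1477 in neurons and 345 and 376 in astrocytes, 4.25-fold higher in neurons (adjusted p = 2.71e-06). Dtx3l, a ligase of the Deltex family, read 33 and 20 in neurons and 225 and 270 in astrocytes, 6.74-fold higher in astrocytes (adjusted p = 1.48e-05), with 1 of the 2 neuron arrays above background and a log2 fold change of -1.96 for an offset 4 times as large against -2.75. Nedd4, the brightest of the list, was 1.32-fold higher in astrocytes (adjusted p = 0.0105), a call lost without any 1 of neurons replicate 1, neurons replicate 2 or astrocytes replicate 2 (adjusted p 0.0824, 0.0746 and 0.0645) and without the mean-variance trend (0.0654).

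Most further Hes and Hey genes were too dim to be tested, 6 of the 8 with a probe set, and Hes2 and Hes3 were at or under background on all arrays. Hes6, whose product counteracts Hes1, read 326 and 358 in neurons and 292 and 287 in astrocytes and was not called (adjusted p = 0.19). Bhlhe40, a related repressor, was 2.79-fold higher in astrocytes (adjusted p = 9.92e-05). Of the proneural genes that Hes repressors are known to hold down, 5 of 7 were too dim to be tested, and Neurog1, Neurog3, Neurod4 and Atoh1 were at or under background on all arrays. Neurod1, a bHLH activator of neuronal differentiation, read 372 and 576 in neurons and 12 and 17 in astrocytes, 17.7-fold higher in neurons (adjusted p = 2.08e-06). The astrocyte signals were at about the array backgrounds of 17 and 15, so the size of this fold is uncertain. Its log2 fold change of 4.15 was 3.00 with an offset 4 times as large and 4.74 with one 4 times as small. Both tested proneural genes entered the test through the neuron arrays alone. Insm1, a zinc finger factor of neuronal and endocrine precursors that is named after its values were seen, read 139 and 123 in neurons and 13 and 10 in astrocytes, at least 8.19-fold higher in neurons (adjusted p = 1.83e-05).

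**Figure D3:**
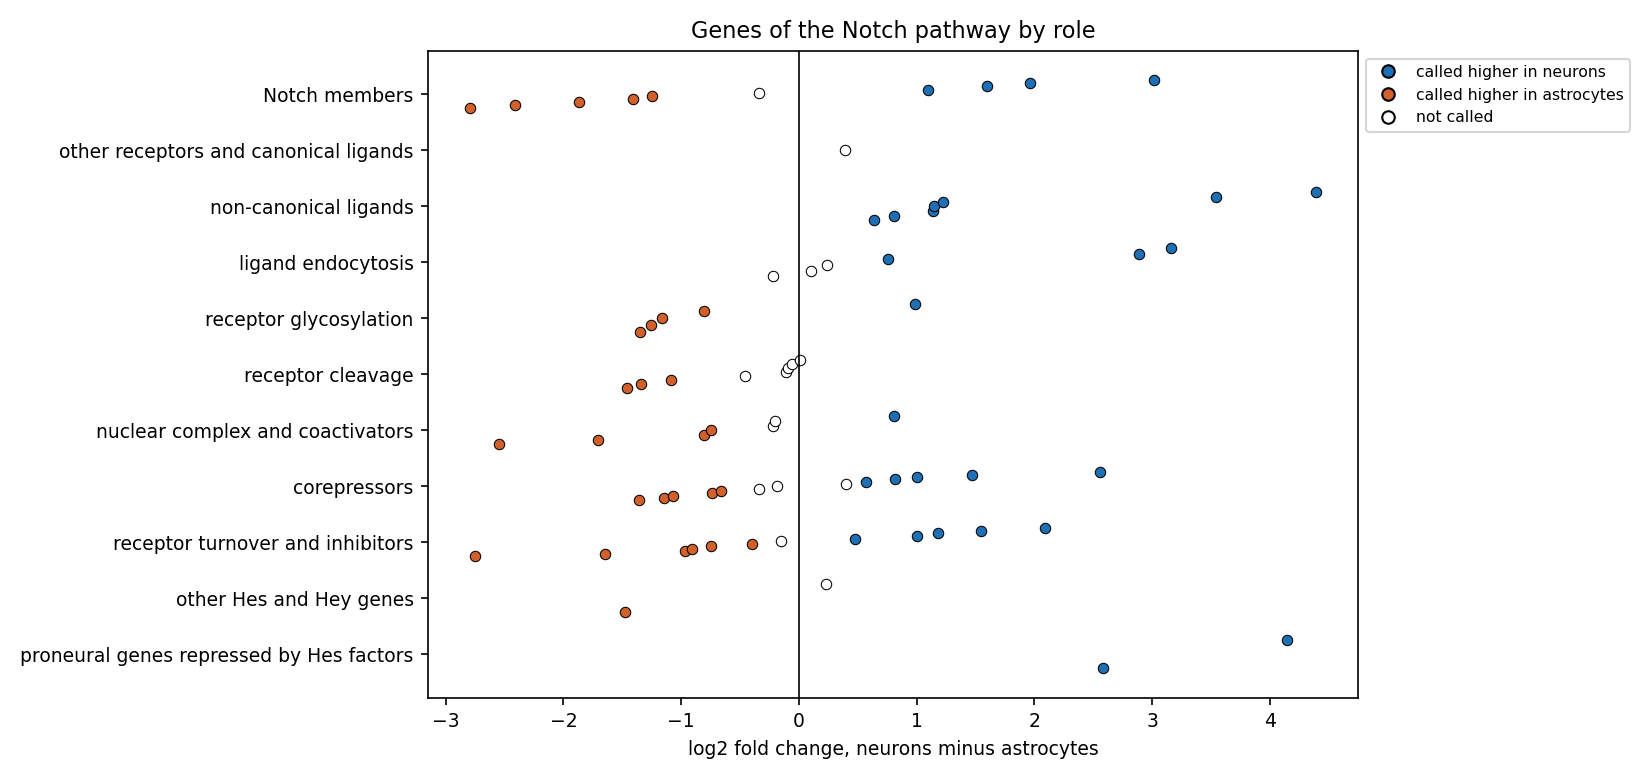
Log2 fold change (neurons minus astrocytes) of the 10 Notch genes and of the 63 tested genes of the wider pathway, in rows by role, each point 1 gene by its main probe set and coloured by call. The 7 non-canonical ligand genes lie right of 0, the 3 called genes of receptor cleavage lie left of it, and corepressors and turnover genes lie on both sides.

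Markers of several cell types were measured in both cultures. The sums of the full lists were apart between the groups, except those of the oligodendrocyte lineage and intermediate progenitors. Neuron markers summed to 35314 and 35132 in neurons and 3189 and 2980 in astrocytes, and all 12 were called higher in neurons. Stmn2, the brightest of them in both cultures, read 5727 and 6022 in neurons and 1465 and 1485 in astrocytes. Snap25, a protein of the synaptic release machinery, read 4360 and 3813 in neurons and 1 and 2 in astrocytes. Astrocyte markers summed to 9418 and 9268 in neurons and 22785 and 22119 in astrocytes, with 9 of 11 tested higher in astrocytes and 1 higher in neurons. Gfap, the filament protein of astrocytes, read 2 and 109 in neurons and 1744 and 2133 in astrocytes, and Aqp4, a water channel, read 551 and 701 in neurons and 4668 and 3859 in astrocytes. The exception was the glutamate transporter gene Slc1a2, with 1832 and 1865 in neurons and 431 and 379 in astrocytes. Glul, for glutamine synthetase, was the brightest of the list in neurons, with 2882 and 2389 there and 4385 and 3463 in astrocytes.

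Beside Dll1, Dll3, Hes5 and Nrarp, cell cycle genes summed to 3223 and 2253 in neurons and 621 and 774 in astrocytes, with 7 of 9 higher in neurons and 0 higher in astrocytes. Mki67, a marker of dividing cells, read 468 and 298 in neurons and 13 and 16 in astrocytes, and Rrm2, of nucleotide synthesis, read 805 and 662 in neurons and 163 and 147 in astrocytes. Oligodendrocyte lineage markers summed to 5843 and 5463 in neurons and 5584 and 6162 in astrocytes, with 6 of 9 called in favour of neurons and 2 in favour of astrocytes. Without Pdgfra, shared with the meningeal fibroblast list, the sums were 4666 and 4161 in neurons and 5565 and 6141 in astrocytes. Pdgfra, the receptor of oligodendrocyte precursors, read 1177 and 1302 in neurons and 19 and 21 in astrocytes, while Cnp, an enzyme of myelin, read 366 and 500 in neurons and 1344 and 1536 in astrocytes. Olig1, the brightest of the list in both cultures, read 2899 and 1895 in neurons and 3500 and 3997 in astrocytes. Intermediate progenitor genes had 2 of 4 tested higher in each culture, with sums of 1873 and 1637 in neurons and 1565 and 2066 in astrocytes. Most of the sum in neurons was Elavl4, which is also a neuron marker here and read 1169 and 1113 in neurons and 13 and 11 in astrocytes, and without it the sums were 704 and 524 in neurons and 1552 and 2055 in astrocytes. Gadd45g of this list read 177 and 121 in neurons and 809 and 1155 in astrocytes, and Btg2 was also higher in astrocytes. Insm1 was the other gene of the list higher in neurons, and Eomes, Neurog2 and Mfng were too dim to be tested. The part of these cells in the excess of the 4 Notch genes in neurons was not tested.

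Beside Notch1, Notch2, Jag1, Hes1 and Hey1, radial glia and progenitor genes summed to 16296 and 15961 in neurons and 31890 and 30422 in astrocytes, with 7 of 10 higher in astrocytes and 0 higher in neurons. Fabp7 was about level, with 8615 and 8404 in neurons and 7941 and 8150 in astrocytes (adjusted p = 0.48). The filament genes Vim, with 2465 and 2189 in neurons and 12518 and 11573 in astrocytes, and Nes, with 162 and 52 in neurons and 1131 and 1320 in astrocytes, were called. Mural cell markers, a list that also holds Notch3, summed to 293 and 660 in neurons and 8278 and 9086 in astrocytes. Of its 6 tested genes 4 were higher in astrocytes, namely Acta2, Tagln, Pdgfrb and Cnn1, while Rgs5 and Notch3 were not called, and Myh11, Kcnj8, Abcc9 and Vtn were too dim to be tested. Acta2, a contractile gene, read 87 and 361 in neurons and 4544 and 4791 in astrocytes, and Tagln read 6 and 95 in neurons and 2691 and 3331 in astrocytes.

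Meningeal fibroblast markers summed to 1733 and 1880 in neurons and 4048 and 4278 in astrocytes, with 5 of 8 tested higher in astrocytes and 2 higher in neurons. This list also holds Pdgfra, and without it the sums were 556 and 578 in neurons and 4029 and 4257 in astrocytes. Islr read 29 and 32 in neurons and 2465 and 2689 in astrocytes. Ependymal markers summed to 231 and 234 in neurons and 1455 and 1593 in astrocytes, with 4 of 5 tested higher in astrocytes. Ccdc153, Tmem212 and Spag17 of this list were too dim to be tested. Foxj1, the factor of motile cilia, read 35 and 24 in neurons and 410 and 407 in astrocytes, Dynlrb2 read 21 and 38 in neurons and 376 and 439 in astrocytes, and Rsph1 read 78 and 65 in neurons and 261 and 300 in astrocytes. Microglia markers summed to 154 and 199 in neurons and 883 and 847 in astrocytes. Of 6 tested genes 5 were higher in astrocytes, namely Csf1r, C1qa, C1qb, Ctss and Tyrobp. Cx3cr1 was not called, and Aif1, Itgam, Trem2 and P2ry12 were too dim to be tested. Ctss, a lysosomal protease, read 3 and 28 in neurons and 295 and 272 in astrocytes, and Csf1r read 47 and 40 in neurons and 149 and 151 in astrocytes. Endothelial markers summed to 173 and 193 in neurons and 396 and 378 in astrocytes. Of these Ocln, of tight junctions, was higher in astrocytes, with 57 and 37 in neurons and 225 and 239 in astrocytes, Kdr was not called, and Pecam1, Cdh5, Cldn5, Tie1, Tek, Flt1, Esam and Vwf were too dim to be tested. The part of these cells in the excess of the 5 Notch genes in astrocytes was not tested.

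**Figure D4:**
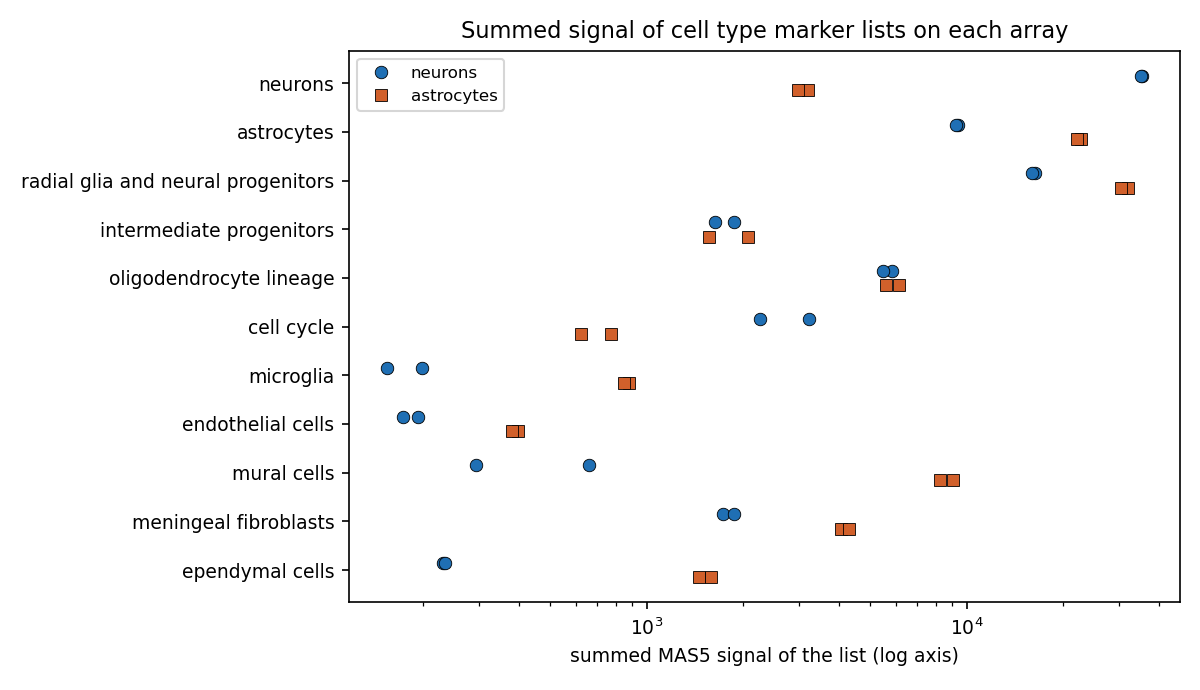
Summed MAS5 signal (log axis) of each cell type marker list on the 2 neuron arrays (circles, above) and the 2 astrocyte arrays (squares, below). Neuron and cell cycle lists sum higher in neurons, the intermediate progenitor and oligodendrocyte lineage sums overlap between the cultures, and the other lists sum higher in astrocytes.

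The directions of the 10 Notch genes held when the processing was changed, but most alternatives could not have reversed them. The groups did not overlap in any of the 10 genes, so no offset and no left-out array could change a direction. The filter, the trend and the replicate block left the fold change of a probe set as it was. Only quantile normalization and the averaging of probe sets could have changed a direction. Across 13 alternatives no Notch gene changed direction, and of 125 values 124 kept their side of the threshold, the exception being Hes1 without astrocytes replicate 1. With 1 array left out in turn, the log2 fold change of Nrarp lay between 2.64 and 3.40, that of Hes5 between 1.42 and 1.78, that of Dll3 between 1.81 and 2.10 and that of Dll1 between 0.94 and 1.25. For the genes higher in astrocytes these ranges were -2.91 to -2.67 for Jag1, -2.57 to -2.25 for Notch2, -2.00 to -1.73 for Hey1, -1.61 to -1.22 for Notch1 and -1.46 to -1.04 for Hes1.

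**Figure D5:**
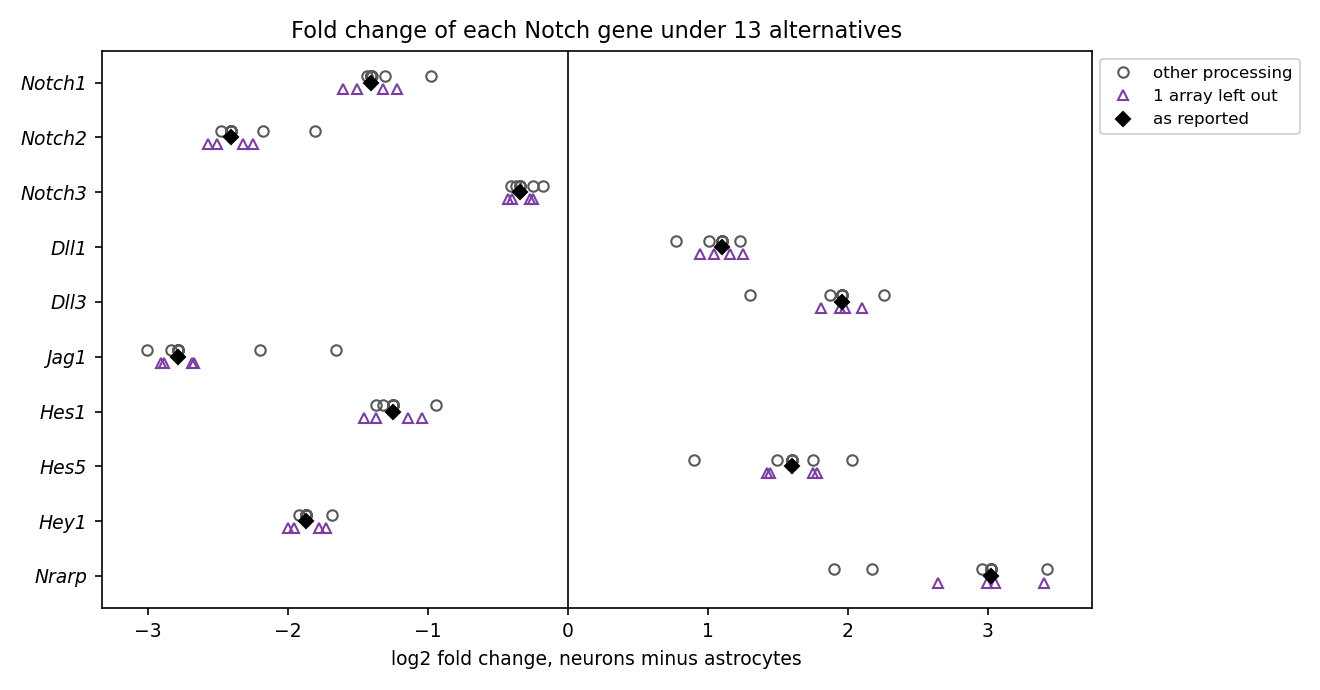
Log2 fold change (neurons minus astrocytes) of each Notch gene as reported (diamonds), with 1 array left out (triangles) and under other processing (circles). No gene crosses 0, and the widest spread is that of Nrarp, between 1.90 and 3.42.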

How the data were processed

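Total RNA from 2 neuron and 2 astrocyte cultures was labelled from 50 ng through cDNA synthesis in repeated cycles, per the labels' protocols. The deposited intensity values are linear MAS5 signals, per the submitters' processing notes, with a trimmed mean of 150 on each array. Version and build are not given in the sources used here. They hold no detection calls, and the number of arrays limits the precision. Values were transformed to log2(value + 12.5), the offset being the median of the arrays' 25th percentiles, without the 64 control probe sets. Probe sets at or above their array's median on at least 2 of 4 arrays were kept (25019). limma 3.58.1 in R 4.3.3 compared the groups (mean-variance trend, two-sided, Benjamini-Hochberg over kept probe sets, threshold 0.05). Every adjusted p is from limma. Its variance for a probe set draws in part on the other kept probe sets, with 6.272 prior and 2 residual degrees of freedom. Folds understate the change of dim genes.

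Each gene stands for its brightest kept probe set (by mean signal), named through the platform annotation. Where a group had neither array above background (from 27 Bacillus subtilis control probe sets), the fold is "at least", from mean signals without the offset against the higher of background and signal. Named were all members, from each pathway list the largest change each way, the brightest gene and genes at background throughout, and from each marker list the brightest gene in each culture and the largest change each way. Other genes are named where a count is listed in full or as chosen after their values were seen, and sums without genes shared between marker lists were added after the sums were seen. The members and lists were chosen with earlier results of these data known. Alternatives changed the offset, filter, normalization, trend, probe set choice and replicate block, or left out 1 array. The average of a gene's probe sets took in those too dim to be tested.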

Additional observations from a re-analysis of the deposited data

How the results depend on the processing

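Directions of the 10 Notch genes were the same under each of 13 alternatives that gave them a value. Most of these alternatives could not have reversed them, as described above. With a filter at the 75th percentile, 1 Notch gene was called higher in neurons instead of 4, because Dll1, Dll3 and Hes5 were too dim to be tested, and 4769 probe sets were called higher in neurons instead of 7367. With 1 array left out, between 4440 and 5272 probe sets were called higher in astrocytes, against 6936, and between 4968 and 5134 higher in neurons. The lowest value for astrocytes was without astrocytes replicate 1, with 4457 without astrocytes replicate 2. The number of Notch genes higher in astrocytes was 4 or 5 in these fits, and that higher in neurons was 4. For the wider pathway the counts were 17 to 21 higher in neurons and 16 to 21 higher in astrocytes. Of 256 values of named pathway genes 245 kept direction and call, 9 lost the call, 1 gained it (Jag2) and 1 changed sign: Mib1 had -0.54 by the average of its probe sets, against 0.24. The labels give both groups the replicate numbers 1 and 2, but same-numbered arrays shared no common deviation (r = -0.0901 across probe sets), so the numbers were not taken as pairs. With the replicate block 4 and 5 Notch genes were called, 7303 probe sets were higher in neurons and 6886 higher in astrocytes. For signals near background, such as Hes5, Dll3 and the dim Nrarp and Notch2 probe sets, the size of a fold depends on the offset and on the background used.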
